A study of Mus musculus with 12 samples.

Results

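Phosphate, calcium and vitamin D handling in the kidney was followed here through 10 genes of 24421 with a symbol in the expression tables, chosen by name: the sodium-phosphate cotransporters Slc34a1 and Slc34a3, the FGF23 co-receptor Kl and its partner receptor Fgfr1, the vitamin D hydroxylases Cyp27b1 and Cyp24a1, the vitamin D receptor Vdr, and the calcium handling genes Trpv5, Calb1 and Slc8a1. Each gene was read from its transcript with the highest total count, all 10 were found, and all 10 passed the filter on low counts in every comparison. The libraries are RNA-seq of whole kidneys from male C57BL/6 mice (C57BL/6J in the study's methods), WT or Tet2-/-, all at 6 weeks of age, with 3 libraries in each of 4 groups. The WT baseline and Tet2-/- baseline groups are labelled as healthy controls, and the study's methods count the mice of the baseline condition apart from those given IR or a sham operation. The WT IR and Tet2-/- IR groups had renal ischemia-reperfusion, in which the right renal pedicle was clamped for 60 min and the left kidney removed, with collection after 24 h. Effects of ischemia, of the surgery and of the loss of the other kidney cannot be told apart in this design, and the sources used here do not give which part of Tet2 is deleted in these mice, which were bred from Tet2+/- pairs.

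The proximal tubule takes phosphate back from the filtrate through apical sodium-phosphate cotransporters, and parathyroid hormone and FGF23, the latter acting through alpha-klotho and an FGF receptor, remove these carriers from the membrane. FGF23 also lowers the renal activation of vitamin D, which Cyp27b1 carries out and Cyp24a1 ends. In the distal convoluted and connecting tubules, calcium enters through the Trpv5 channel, is buffered by calbindin and leaves through the sodium-calcium exchanger Slc8a1 and calcium pumps.

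RefSeq promoter sequences (table of build GRCm38.p6) were found for 7 of the 10 genes, and each matched the mm9 genome at 1 place, ending directly before the first base of the counted transcript. Cyp24a1, Calb1 and Fgfr1 are not in that table. The 250 bases before the start are shown for the phosphate genes Slc34a1, Slc34a3 and Kl, which were lower after IR in the libraries labelled Tet2-/-, and for Trpv5, which was higher there. Capitals mark the hexamer AGGTCA, the hexamer AGTTCA and the hexamer GGTTCA, to which the vitamin D receptor is known to bind, searched on both strands. The stretches are Slc34a1 at chr13:55500759-55501008 on the plus strand, Slc34a3 at chr2:25089755-25090004 on the minus strand, Kl at chr5:151754932-151755181 on the plus strand and Trpv5 at chr6:41630723-41630972 on the minus strand (mm9), each printed 5′ to 3′ in the direction of the gene.
Slc34a1: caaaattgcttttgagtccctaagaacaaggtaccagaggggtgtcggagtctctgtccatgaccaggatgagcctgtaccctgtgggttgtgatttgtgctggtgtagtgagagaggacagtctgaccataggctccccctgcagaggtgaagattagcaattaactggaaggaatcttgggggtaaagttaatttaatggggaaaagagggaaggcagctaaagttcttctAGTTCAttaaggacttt
Slc34a3: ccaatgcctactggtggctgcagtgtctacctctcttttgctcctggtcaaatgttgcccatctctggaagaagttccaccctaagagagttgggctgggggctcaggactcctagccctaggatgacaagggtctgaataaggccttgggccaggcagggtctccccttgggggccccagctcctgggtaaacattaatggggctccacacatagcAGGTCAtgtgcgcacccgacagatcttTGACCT
Kl: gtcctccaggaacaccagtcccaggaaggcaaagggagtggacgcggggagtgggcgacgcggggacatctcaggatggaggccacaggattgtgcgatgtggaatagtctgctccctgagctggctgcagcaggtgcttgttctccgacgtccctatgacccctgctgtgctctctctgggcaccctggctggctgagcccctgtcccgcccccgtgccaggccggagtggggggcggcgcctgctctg
Trpv5: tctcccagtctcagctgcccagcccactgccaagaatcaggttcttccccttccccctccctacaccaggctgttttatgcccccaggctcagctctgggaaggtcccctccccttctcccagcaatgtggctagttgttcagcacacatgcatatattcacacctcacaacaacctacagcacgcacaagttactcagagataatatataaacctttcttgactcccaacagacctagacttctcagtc
Slc34a1 holds AGTTCA 17 to 12 bases before its start. Slc34a3 holds AGGTCA 33 to 28 bases before its start and again, on the other strand, in the last 6 bases. Kl and Trpv5 hold none of these hexamers, and neither do Cyp27b1 and Slc8a1. Vdr holds AGTTCA on the other strand, 91 to 86 bases before its start. Any of the 3 hexamers occurs in 30.7% of 32851 promoters of this length (AGGTCA in 14.0%, AGTTCA in 11.8%, GGTTCA in 8.85%) and in 3 of the 7 genes. A direct repeat of 2 hexamers with a spacer of 3 bases was in none of the 7 and in 0.0244% of all promoters.

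The libraries hold 51007362 to 107969879 counts over 1 transcript per gene. The Tet2 transcript itself was at 9.15, 6.25 and 7.33 FPKM in WT baseline and at 9.25, 16.6 and 10.3 FPKM in the libraries labelled Tet2-/- at baseline, so it was not lower there. After IR it was at 9.34, 3.97 and 3.86 FPKM in WT and at 2.64, 3.20 and 1.76 FPKM in the libraries labelled Tet2-/-. Since the deleted part is not given, this level does not check the genotype, and the groups are named by their labels. An adipocyte list of 8 genes (Adipoq, Plin1, Cidec, Lep, Retn, Cfd, Fabp4, Ucp1), all in the table, stood apart in 3 libraries. Its mean log2(FPKM + 0.1) was 1.76 in WT baseline replicate 2, 3.20 in WT baseline replicate 3 and 3.49 in Tet2-/- IR replicate 3, against -1.94 to -0.44 in the other 9. Adipoq, which defines adipocytes, was at 3.01, 15.6 and 10.01 FPKM in these 3 libraries and at 0 in Tet2-/- baseline replicates 2 and 3 and WT IR replicates 1 and 3. Calls that change without these libraries, or with this level as a covariate, are given with that value.

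At baseline the 10 genes spanned 3 orders of magnitude on the FPKM scale, which is per transcript length and so can be compared between genes. Slc34a1 had the highest level of the 10 in all 4 groups. In WT baseline it averaged 1463 ± 86.2 FPKM (SD, n = 3), which ranked 12 among 24421 genes. Kl (76.9 ± 28.6 FPKM, rank 795) and Calb1 (70.8 ± 16.8 FPKM, rank 857) followed, and their ranges overlapped. Vdr came next at 39.8 ± 7.996 FPKM, below the range of Calb1 and above that of Fgfr1 (9.08 ± 0.626 FPKM). From Fgfr1 down, the ranges of neighbours overlapped: Slc34a3 averaged 8.05 ± 6.67 FPKM, Slc8a1 3.97 ± 2.04 FPKM, Trpv5 2.46 ± 2.08 FPKM, Cyp27b1 1.198 ± 0.310 FPKM and Cyp24a1 1.09 ± 0.942 FPKM. The spread between mice differed among the genes. In WT baseline the highest library was 1.12 times the lowest for Slc34a1 and 1.14 times for Fgfr1, but 5.68 times for Slc34a3, 5.38 times for Cyp24a1 and 6.49 times for Trpv5, beside a median of 1.33 times over 12207 genes with a mean of at least 1 FPKM and no 0 in this group. WT baseline replicate 3, the library of that group with the most adipocyte signal, was highest of its group for 8 of the 10 genes, and what part the fat had in this was not tested.

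**Figure D1:**
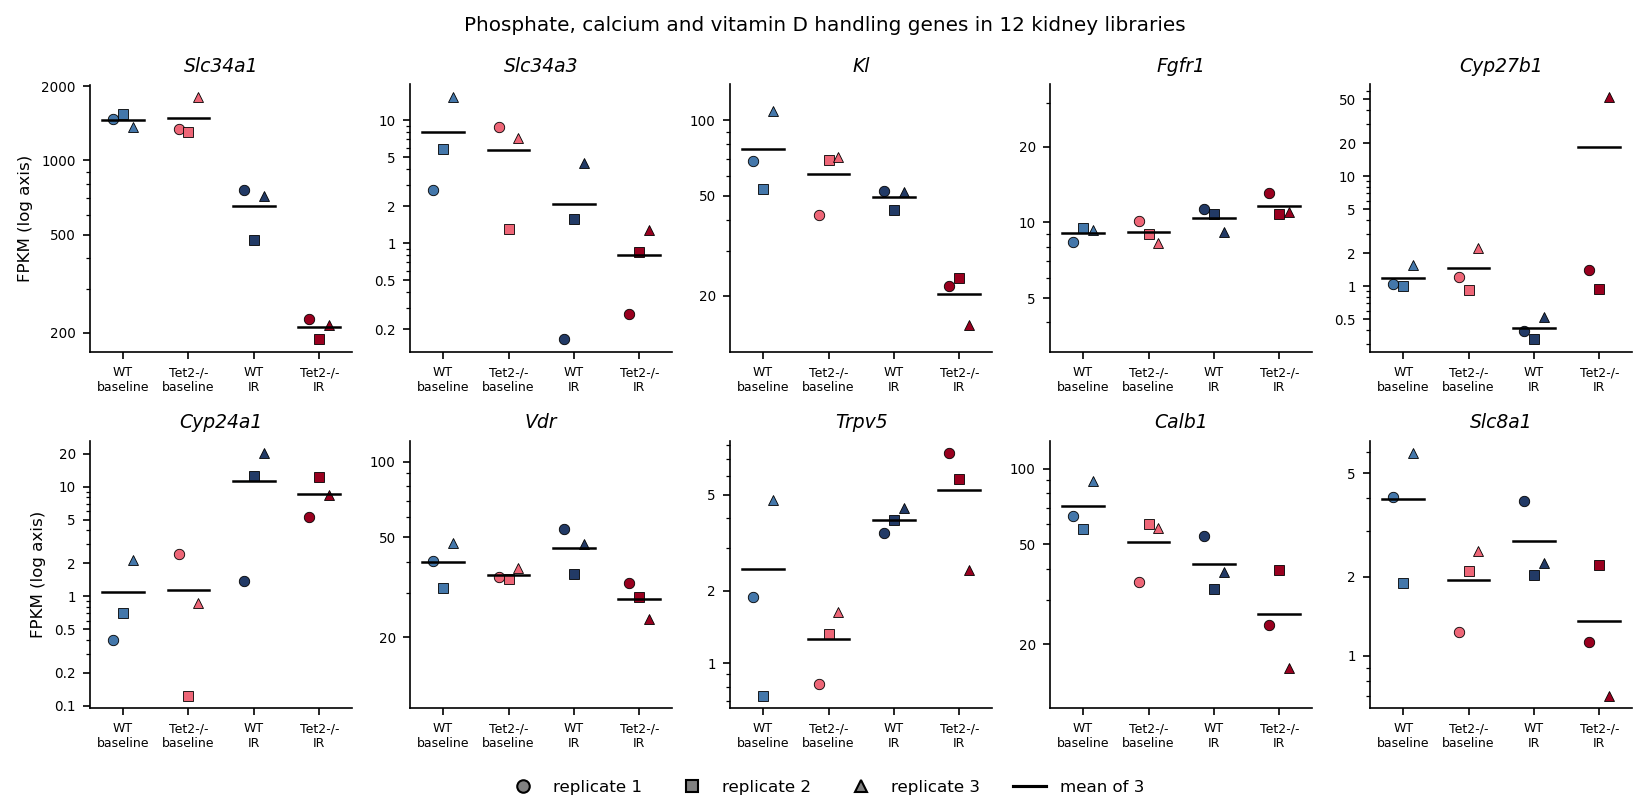
Level of each of the 10 genes in each of the 12 libraries, in FPKM on a log axis, with a point per library (circle, square and triangle for replicates 1, 2 and 3) and a line at the mean of 3. Slc34a1 lies between 1302 and 1811 FPKM in the 6 baseline libraries and between 188 and 228 FPKM in Tet2-/- IR, and Cyp27b1 stands at 53.0 FPKM in Tet2-/- IR replicate 3 only.

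Calls required an absolute log2 fold change over 1 together with an edgeR quasi-likelihood adjusted p under 0.05. IR against baseline in WT called none of the 10 genes, higher or lower, where 1.46% of 16015 genes tested were called higher and 0.887% lower. Of the 10, 5 had an unadjusted p under 0.05 there (1 higher, 4 lower), beside 22.7% of all genes tested. DESeq2 called 1 higher (Cyp24a1) and 2 lower (Slc34a1 and Cyp27b1), beside 490 higher and 492 lower of the 16015 genes. With the replicate number as a block, edgeR called 1 higher (Cyp24a1) and 3 lower (Slc34a1, Slc34a3 and Cyp27b1). The mice of the groups differ, so this pairing, here and below, rests on correlations between these libraries alone. IR against baseline in the libraries labelled Tet2-/- called 2 of the 10 higher (Trpv5 and Cyp24a1) and 4 lower (Slc34a1, Slc34a3, Kl and Calb1), where 12.7% of 16358 genes were called higher and 11.6% lower. The 2 higher calls are near that background in share, and the 4 lower calls are above it. The 10 genes were chosen with earlier results of these data known, so these shares only describe them. Tet2-/- against WT at baseline called none, with backgrounds of 0.0124% higher and 0% lower of 16086 genes. None of the 10 had an unadjusted p under 0.05 at baseline, beside 11.8% of all genes tested. DESeq2 called none of the 10 either, beside 23 higher and 297 lower of the 16086 genes. Their log2 differences there ran from -0.93 for Slc8a1 (adjusted p = 0.448) to 0.37 for Cyp27b1 (adjusted p = 0.670). Tet2-/- against WT after IR called 0 higher and 2 lower (Slc34a1 and Kl), with backgrounds of 2.3% and 3.85% of 16186 genes. The genotype by IR interaction, which asks whether the response to IR differed between genotypes and was called at an adjusted p under 0.05 alone, called 0 higher and 1 lower (Slc34a1), with backgrounds of 3.78% and 5.38% of 16741 genes. The median log2 fold change of the 10 was -0.66 for IR in WT, -0.70 for IR in Tet2-/-, -0.16 between genotypes at baseline, -0.79 between genotypes after IR and -0.52 for the interaction. Over all genes tested, these medians were -0.03, 0.04, 0.004, 0.04 and 0.10. The comparisons share groups, so their calls are not independent of each other. Ranges of FPKM that did not overlap were common among all genes. For IR in Tet2-/-, 6619 of 16358 genes lay higher and 2925 lower in this way, and 3 and 4 of the 10. For IR in WT these were 3024 and 1672 of 16015 genes, and 0 and 4 of the 10. Between genotypes after IR they were 3565 and 2363 of 16186 genes, and 1 and 3 of the 10. FPKM are scaled to library size alone, on which scale the median of all genes after IR in Tet2-/- was 0.27 and not 0.04 on the log2 scale, a shift of 0.23, so fitted log2 values there lie below log2 ratios of FPKM, which makes fitted falls larger and fitted rises smaller.

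**Figure D2:**
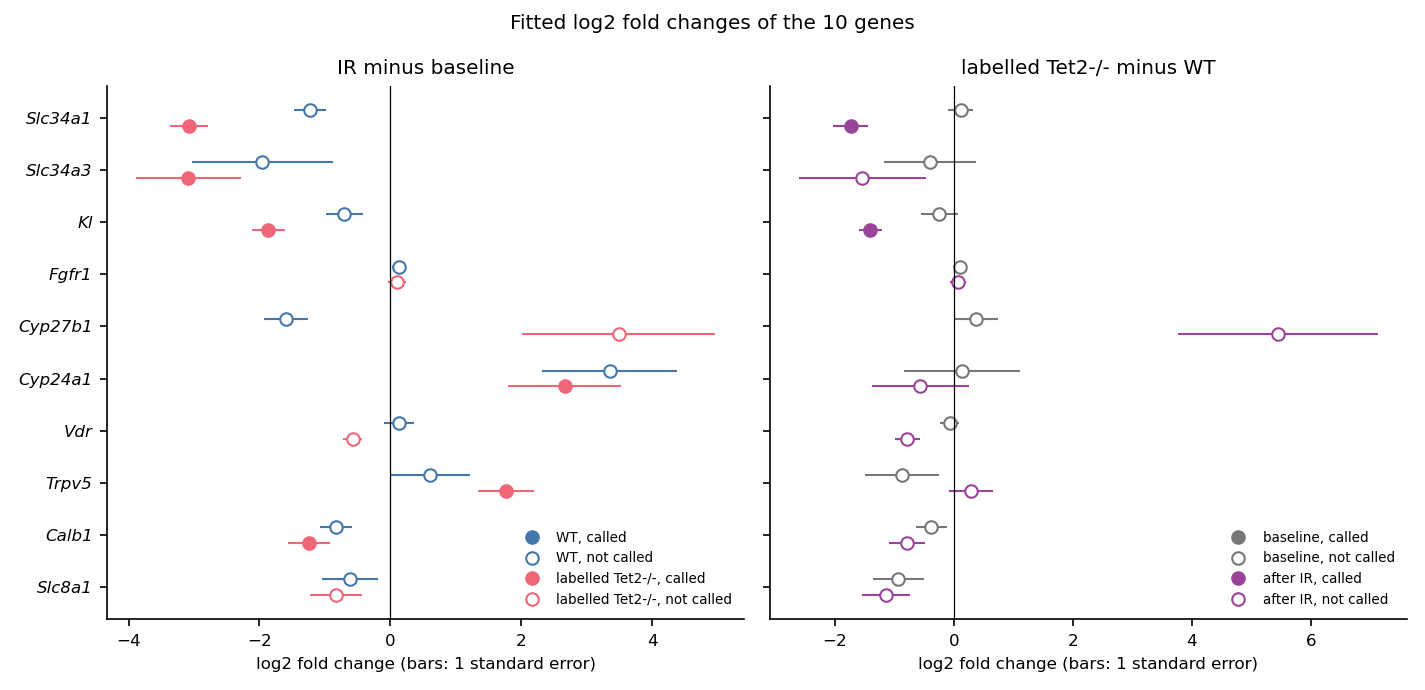
Fitted log2 fold changes of the 10 genes with bars of 1 standard error, IR minus baseline in each genotype (left) and labelled Tet2-/- minus WT at baseline and after IR (right). Filled points passed the test and the fold change threshold: 6 for IR in Tet2-/-, 2 for the genotypes after IR, and none in the other comparisons.

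Slc34a1 (NM_011392, chr13:55501009-55516056 on mm9, plus strand) encodes NaPi-IIa, the main phosphate carrier of the proximal tubule brush border. It was at 1477, 1541 and 1370 FPKM in WT baseline, at 1338, 1302 and 1811 FPKM in Tet2-/- baseline, at 760.1, 477 and 716 FPKM in WT IR and at 228, 188 and 214 FPKM in Tet2-/- IR. Every IR library lay below every baseline library, and every Tet2-/- IR library lay below every WT IR library. Slc34a1 fell by 3.08 ± 0.29 (SE) on the log2 scale after IR in the libraries labelled Tet2-/- (8.43-fold lower, edgeR adjusted p = 0.000300), and this call held under all 18 alternative settings. In WT the difference was -1.22 ± 0.25 on the log2 scale with an adjusted p of 0.0508, just over the threshold. With the replicate number as a block it was -1.26 with an adjusted p of 0.0227, which passes, though the numbers do not pair mice. After IR, Slc34a1 was lower in Tet2-/- than in WT by -1.74 ± 0.29 on the log2 scale (adjusted p = 0.0187). That call was lost without WT IR replicate 1, WT IR replicate 3, Tet2-/- IR replicate 1 or Tet2-/- IR replicate 2, with values of -1.80 to -1.60 and adjusted p of 0.0524 to 0.0637, and with the adipocyte level as a covariate (-1.78, adjusted p = 0.0668). The interaction of -1.81 ± 0.35 (edgeR adjusted p = 0.0117) gives the difference between the IR responses. With the adipocyte level as a covariate it was -1.81 with an adjusted p of 0.105, and without the 3 libraries of high adipocyte level it was -1.91 with an adjusted p of 0.106, and with WT baseline replicate 1 as the only WT baseline library it was -1.85 with an adjusted p of 0.118, so the call was lost in all 3. Its rank by mean FPKM went from 12 at baseline in both genotypes to 40 in WT IR and 211 in Tet2-/- IR. The transcript shares 332 exon bases with Pfn3, a gene on the opposite strand, and the sources used here do not say whether counting used strand.

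Slc34a3 (NM_080854, chr2:25084417-25089754, minus strand) encodes NaPi-IIc, a further apical carrier of the proximal tubule. It was at 2.73, 5.89 and 15.5 FPKM in WT baseline, 8.78, 1.31 and 7.24 FPKM in Tet2-/- baseline, 0.166, 1.58 and 4.53 FPKM in WT IR, and 0.265, 0.849 and 1.30 FPKM in Tet2-/- IR. The spread inside groups was wide, up to 27.3 times in WT IR, and the WT groups overlapped. In the libraries labelled Tet2-/- it fell by 3.09 ± 0.80 on the log2 scale after IR (adjusted p = 0.0173), a call lost without Tet2-/- baseline replicate 1 (-2.68, adjusted p = 0.0569). The highest Tet2-/- IR level, 1.295 FPKM, and the lowest Tet2-/- baseline level, 1.307 FPKM, nearly met. In WT the log2 difference was -1.95 ± 1.08 (adjusted p = 0.331), with -1.02 without WT baseline replicate 3 and -3.31 without WT IR replicate 3. With the replicate block it was -2.46 with an adjusted p of 0.0207, past the threshold. Between genotypes after IR, Slc34a3 differed by -1.54 ± 1.07 on the log2 scale (adjusted p = 0.387), so a genotype difference was not detectable at this spread, and without WT IR replicate 3 the value was -0.15. The interaction was -1.09 ± 1.44 (adjusted p = 0.663).

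Other phosphate carriers and the scaffolds that hold them at the membrane were read from a list of 9 further genes, all tested. After IR in the libraries labelled Tet2-/-, 3 of the 9 were called higher and 4 lower, and in WT 0 were called in either direction. The median log2 fold change of the list was -0.45 in Tet2-/- and -0.10 in WT, beside 0.04 and -0.03 over all genes tested, of which 12.7% were called higher and 11.6% lower in Tet2-/- and 1.46% and 0.887% in WT. Slc34a2, the intestinal and lung NaPi-IIb, was at 1.62, 1.34 and 1.09 FPKM in Tet2-/- baseline and at 25.4, 22.9 and 7.84 FPKM in Tet2-/- IR, and it rose by 3.52 ± 0.41 on the log2 scale (adjusted p = 0.000645). In WT it went from 0.859, 1.15 and 1.12 FPKM to 2.10, 15.8 and 11.8 FPKM, with a log2 difference of 3.20 ± 0.68 (adjusted p = 0.0567). Slc20a1 and Slc20a2, the widely expressed PiT carriers, rose in Tet2-/- IR by 1.31 and 1.13 on the log2 scale (adjusted p = 0.000901 and 0.000636). In WT they differed by 1.29 and 0.70 (adjusted p = 0.0875 and 0.0511), with every IR library above baseline, and their interactions were 0.054 and 0.48 (adjusted p = 0.949 and 0.140). Slc20a1 was at 26.0, 19.1 and 18.9 FPKM in Tet2-/- baseline and at 69.2, 62.4 and 57.0 FPKM in Tet2-/- IR. The carriers of the organic anion and phosphate family Slc17a1 and Slc17a3 fell in Tet2-/- IR by 1.71 and 2.27 on the log2 scale. So did the scaffold Pdzk1, which binds NaPi-IIa, by 2.22 on the log2 scale (adjusted p = 0.000851), and Slc9a3r1 (NHERF1, its other scaffold) by 1.10 on the log2 scale. Pdzk1 was at 520, 359 and 401 FPKM in WT IR and at 95.8, 174 and 169 FPKM in Tet2-/- IR. Pdzk1 and Slc17a3 were also called lower in Tet2-/- than in WT after IR (-1.64 and -1.29 on the log2 scale), and Pdzk1, Slc17a3 and Slc9a3r1 in the interaction (-1.84, -1.46 and -1.13).

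Slc34a1 made up most of the carrier transcript in every library. Of the summed FPKM of the 5 sodium-phosphate cotransporters (Slc34a1, Slc34a2, Slc34a3, Slc20a1 and Slc20a2), it took 97.7% ± 0.398 (SD, n = 3) in WT baseline, 97.5% ± 0.703 in Tet2-/- baseline, 90.1% ± 5.15 in WT IR and 66.8% ± 3.83 in Tet2-/- IR. The sum itself was 1497 ± 83.9, 1521 ± 284, 718 ± 134 and 314 ± 29.3 FPKM in the same order. The share of Slc34a2, Slc20a1 and Slc20a2 together was at most 2.64% in a baseline library, 5.004% to 15.01% in WT IR and 28.5% to 36.0% in Tet2-/- IR. Groups after IR did not overlap with each other or with baseline in this share, and the ratio within a library shows unequal change between carriers, not which of them moved.

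**Figure D3:**
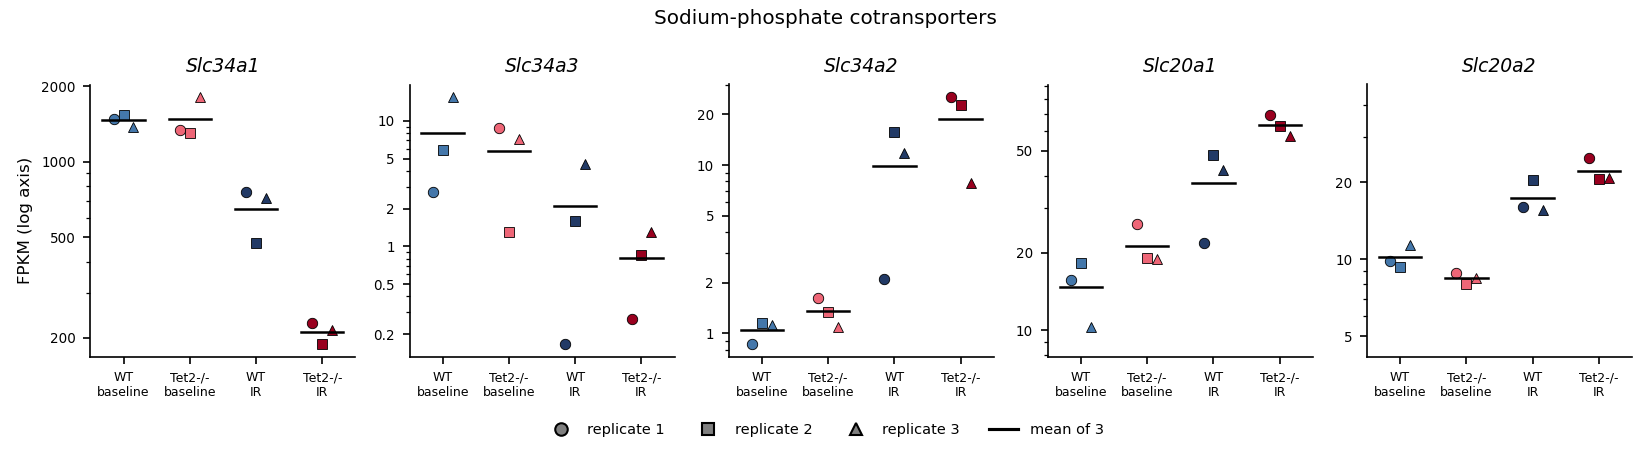
Level of the 5 sodium-phosphate cotransporters in each library, in FPKM on a log axis, with the symbols and mean lines of the plot of all 10 genes. Slc34a1 and Slc34a3 are lowest in Tet2-/- IR by group mean, where Slc34a2, Slc20a1 and Slc20a2 have their highest group means.

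Kl (NM_013823, chr5:151755182-151796392, plus strand) encodes alpha-klotho, without which FGF23 does not signal in the tubule. It was at 69.0, 53.1 and 109 FPKM in WT baseline, at 41.8, 69.3 and 71.5 FPKM in Tet2-/- baseline, at 52.4, 43.7 and 51.8 FPKM in WT IR and at 21.8, 23.6 and 15.3 FPKM in Tet2-/- IR. The 3 Tet2-/- IR libraries were the lowest of the 12, below every WT IR library. In the libraries labelled Tet2-/-, Kl fell by 1.86 ± 0.25 on the log2 scale after IR (3.64-fold lower, adjusted p = 0.00120), under all 18 alternative settings. In WT every IR library also lay below the baseline range, with a log2 difference of -0.71 ± 0.28 (adjusted p = 0.197), which was -0.35 without WT baseline replicate 3. Kl was lower in Tet2-/- than in WT after IR by -1.40 ± 0.19 on the log2 scale (2.64-fold, adjusted p = 0.0127), a call that held without each library in turn and was lost with the adipocyte level as a covariate (-1.22, adjusted p = 0.0513). The interaction for Kl was -1.11 ± 0.40 on the log2 scale (adjusted p = 0.102), so a different response to IR in the 2 genotypes was not shown by edgeR. It was called without WT baseline replicate 3 (-1.47, adjusted p = 0.0383) and by DESeq2 (-1.18, adjusted p = 0.0308).

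Fgfr1 (NM_010206, chr8:26629231-26686190, plus strand), a receptor tyrosine kinase that pairs with klotho, was between 8.30 and 13.1 FPKM in all 12 libraries. The Tet2-/- IR libraries (13.1, 10.8 and 11.03 FPKM) lay above those of Tet2-/- baseline (10.1, 8.98 and 8.30 FPKM), and the other groups compared overlapped. Its log2 differences were 0.13 ± 0.11 for IR in WT, 0.10 ± 0.13 for IR in Tet2-/-, 0.10 ± 0.11 between genotypes at baseline and 0.07 ± 0.13 after IR, with adjusted p of 0.497 to 0.769, and its interaction was 0.0077 (adjusted p = 0.985). It was read from 1 of 3 transcripts whose counts are nearly the same, and it shares 452 exon bases with the antisense lincRNA Gm16159. Of 17 further genes of the phosphate and calcium hormones and their signalling, 11 were tested, and Fgf23, Pth, Phex, Dmp1, Mepe and Klb were too low to test between groups. Klb alone of these passed the filter over all 12 libraries, with an interaction of 4.71 ± 1.39 on the log2 scale (adjusted p = 0.0559), at 0.129 FPKM or less in every library. Fgf23 and Pth, hormones of bone and of the parathyroid gland, were at 0 in 8 and 11 of the 12 libraries. After IR in the libraries labelled Tet2-/-, 0 of the 11 were called higher and 3 lower, and in WT none was called. The medians were -0.91 and -0.10 on the log2 scale. Over all genes 12.7% were called higher and 11.6% lower in Tet2-/-, and 1.46% and 0.887% in WT. Fgfr4, another FGF receptor of the proximal tubule, fell by 1.79 on the log2 scale (adjusted p = 0.000130), Enpp1, which makes pyrophosphate, by 1.31, and Pth1r, the parathyroid hormone receptor, by 1.03. Stc2, a stanniocalcin, had the highest fold changes of the list, 0.51 in Tet2-/- (adjusted p = 0.162) and 0.20 in WT (adjusted p = 0.826), and Enpp1 the lowest in WT (-0.59, adjusted p = 0.165). Pth1r was at 268, 298 and 286 FPKM in Tet2-/- baseline and at 157, 197 and 149 FPKM in Tet2-/- IR, with 270.1 to 296 FPKM in WT IR. No gene of this list was called between genotypes at baseline or after IR, although after IR Fgfr4 (-0.95), Pth1r (-0.86), Fgfr3 (-0.85) and Fam20c (-0.79) were lower with adjusted p of 0.0200 to 0.0496 and failed the fold change threshold alone. Pth1r, Fgfr4 and Fgfr3 were called lower in the interaction (-1.06, -1.24 and -1.14 on the log2 scale, adjusted p = 0.0101, 0.0121 and 0.00953).

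Cyp27b1 (NM_010009, chr10:126485302-126490062, plus strand) encodes the 1-alpha-hydroxylase that makes calcitriol, the active form of vitamin D. It was at 1.04, 1 and 1.56 FPKM in WT baseline, at 1.22, 0.916 and 2.22 FPKM in Tet2-/- baseline and at 0.388, 0.328 and 0.523 FPKM in WT IR. In Tet2-/- IR it was at 1.42 and 0.948 FPKM in replicates 1 and 2 and at 53.0 FPKM in replicate 3. The 3 WT IR libraries were the lowest of the 12, with a log2 difference from WT baseline of -1.59 ± 0.34 (adjusted p = 0.0567). With the replicate block that difference was -1.60 with an adjusted p of 0.0171, and DESeq2 gave -1.58 with an adjusted p of 0.000391, both past the threshold. The level in Tet2-/- IR replicate 3 was 23.9 times that of the next library and 44.8 times the mean of the other 2 Tet2-/- IR libraries. Ranked by the ratio of this library to the next, Cyp27b1 was number 3 of 12214 genes. It is the library with the highest adipocyte level and, at 354 FPKM against 1188 to 2512 FPKM in the other 5 IR libraries, the lowest level of the thick ascending limb gene Umod. Whether these and the Cyp27b1 level belong together was not tested.

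The fitted values for Cyp27b1 in Tet2-/- IR depended on that library. The log2 difference from Tet2-/- baseline was 3.49 ± 1.48 (adjusted p = 0.0929), and without replicate 3 it was -0.60, with the opposite sign. Against WT after IR it was 5.45 ± 1.68 (adjusted p = 0.0844), and without replicate 3 it was 1.37, still above 0. All 3 Tet2-/- IR libraries lay above the WT IR range, and the mean of replicates 1 and 2 was 2.86 times the WT IR mean. The interaction was 5.13 ± 1.70 (adjusted p = 0.0804) and 1.04 without replicate 3. With the adipocyte level as a covariate, IR in Tet2-/- gave -1.49 and the interaction -0.016, both of opposite sign, and the difference from WT after IR was 0.96. Cyp27b1 was called higher in some settings that keep replicate 3. With all 12 libraries in a single fit it was 3.54 for IR in Tet2-/- (adjusted p = 0.0348) and 5.46 against WT after IR (adjusted p = 0.0187), and without replicate 2 it was 4.06 for IR in Tet2-/- (adjusted p = 0.0387) and 5.62 for the interaction (adjusted p = 0.0353). The neighbouring genes were not raised to this extent. The nearest upstream gene Mettl1 was at 17.7 FPKM in that library and at 7.49 to 19.9 FPKM in the others, whereas March9, directly downstream, was 1.19 times and Mettl21b 1.88 times the next library.

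**Figure D4:**
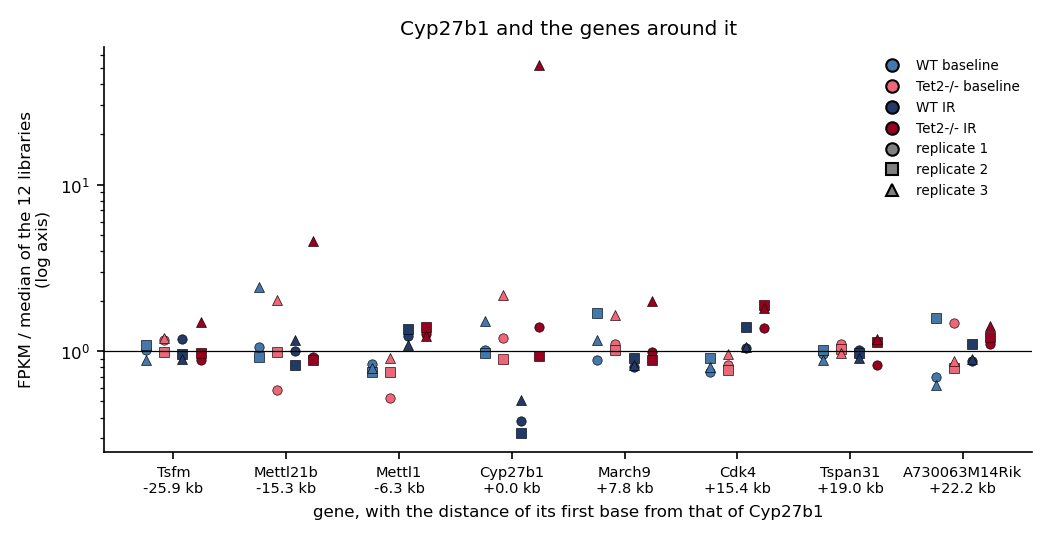
FPKM of Cyp27b1 and the 7 genes around it in each library, divided by the median of the 12 libraries, on a log axis, with the distance between first bases in kb. Only Cyp27b1 lies above 10 times the median, in Tet2-/- IR replicate 3, and its 3 lowest points are the WT IR libraries.

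Cyp24a1 (NM_009996, chr2:170308457-170322645, minus strand) encodes the 24-hydroxylase that inactivates calcitriol, and it is a known target of the vitamin D receptor. It was at 0.402, 0.705 and 2.16 FPKM in WT baseline, at 2.45, 0.124 and 0.868 FPKM in Tet2-/- baseline, at 1.39, 12.4 and 20.3 FPKM in WT IR and at 5.33, 12.1 and 8.32 FPKM in Tet2-/- IR. In the libraries labelled Tet2-/-, every IR level was above every baseline level, and Cyp24a1 rose by 2.66 ± 0.86 on the log2 scale (adjusted p = 0.0393). That call was lost without Tet2-/- baseline replicate 3 or any of Tet2-/- IR replicates 1, 2 and 3, with adjusted p of 0.0554 to 0.113 and values of 2.41 to 2.89, and with the adipocyte level as a covariate (2.53, adjusted p = 0.0714) or all 12 libraries in a single fit (2.70, adjusted p = 0.0560). In WT the log2 difference was larger, 3.35 ± 1.04, and did not pass (adjusted p = 0.127), with WT IR replicate 1 inside the baseline range. Without that library it was 3.88 with an adjusted p of 0.0428, and with the replicate block 3.04 with an adjusted p of 0.0115, both past the threshold. The genotypes did not differ beyond the spread after IR (-0.56 ± 0.81, adjusted p = 0.683) or in the interaction (-0.65 ± 1.41, adjusted p = 0.806). Its exons share up to 83 bases with Pfdn4 on the other strand.

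Set against each other within a library, Cyp24a1 was 0.387 to 1.39 times Cyp27b1 in WT baseline, 0.135 to 1.998 times in Tet2-/- baseline and 3.58 to 38.9 times in WT IR. In Tet2-/- IR it was 3.76 and 12.8 times in replicates 1 and 2 and 0.157 times in replicate 3. Except for that library, every ratio after IR was above every ratio at baseline.

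Vdr (NM_009504, chr15:97684858-97738727, minus strand), the nuclear receptor for calcitriol, was at 40.3, 31.5 and 47.5 FPKM in WT baseline, 34.8, 34.0 and 37.7 FPKM in Tet2-/- baseline, 53.9, 35.7 and 47.0 FPKM in WT IR, and 33.0, 29.0 and 23.6 FPKM in Tet2-/- IR. The Tet2-/- IR libraries lay below those of Tet2-/- baseline and of WT IR. The differences were small: -0.58 ± 0.15 on the log2 scale after IR in Tet2-/- (adjusted p = 0.0182, under the fold change threshold) and -0.78 ± 0.21 against WT after IR (adjusted p = 0.0626). In WT it was 0.13 ± 0.23 (adjusted p = 0.767), and the interaction was -0.67 ± 0.28 (adjusted p = 0.155). Of 10 further genes of vitamin D supply and receptor partners, 9 were tested after IR in Tet2-/-, with 0 called higher and 3 lower (median -0.24), and 10 in WT, with none called (median -0.06), against the same shares of all genes as for the hormone list. The endocytic receptors megalin (Lrp2) and cubilin (Cubn), which take up filtered vitamin D bound to its carrier protein, fell in Tet2-/- IR by 1.94 and 1.52 on the log2 scale (adjusted p = 0.000874 and 0.000577). Lrp2 was at 87.9, 70.4 and 57.6 FPKM in WT IR and at 23.8, 19.0 and 22.5 FPKM in Tet2-/- IR. Cyp27a1, a mitochondrial hydroxylase able to act on vitamin D, fell by 1.27 on the log2 scale. Cyp2r1, the main 25-hydroxylase, differed by 0.93 (adjusted p = 0.0426), and Pdia3, the list's gene of highest mean FPKM, by -0.84 (adjusted p = 0.00735), both under the fold change threshold. In WT the list ran from -1.49 for Rxrg, a partner of Vdr (adjusted p = 0.449), to 0.97 for Gc, the vitamin D carrier protein (adjusted p = 0.457). Lrp2 and Cubn were also called lower in Tet2-/- than in WT after IR (-1.81 and -1.87), and Lrp2, Cubn, Pdia3 and Cyp27a1 in the interaction.

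Trpv5 (NM_001007572, chr6:41602769-41630722, minus strand) encodes the apical calcium channel of the late distal convoluted and connecting tubules. It was at 1.89, 0.735 and 4.77 FPKM in WT baseline, at 0.819, 1.33 and 1.64 FPKM in Tet2-/- baseline, at 3.48, 3.93 and 4.42 FPKM in WT IR and at 7.45, 5.82 and 2.44 FPKM in Tet2-/- IR. Tet2-/- IR lay above Tet2-/- baseline in every library, as for 6619 of the 16358 genes tested. The WT groups overlapped through WT baseline replicate 3. Trpv5 rose by 1.77 ± 0.42 on the log2 scale after IR in the libraries labelled Tet2-/- (3.41-fold, adjusted p = 0.0128), under all 18 alternative settings. In WT the log2 difference was 0.61 ± 0.60 (adjusted p = 0.583), and without WT baseline replicate 3, a library of high adipocyte level, it was 1.54, which also was not called. The interaction was 1.21 ± 0.81 (adjusted p = 0.364), so a difference between genotypes in this response was not shown. Without WT baseline replicate 3 it was 0.27. After IR the genotypes differed by 0.28 ± 0.37 (adjusted p = 0.649).

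Calb1 (NM_009788, chr4:15808411-15833856, plus strand) encodes calbindin-D28k, the calcium buffer of the same tubule segments. It was at 65.1, 57.6 and 89.7 FPKM in WT baseline, at 35.2, 59.98 and 58.2 FPKM in Tet2-/- baseline, at 53.9, 33.1 and 38.8 FPKM in WT IR and at 23.9, 39.4 and 16.1 FPKM in Tet2-/- IR. Calb1 fell by 1.24 ± 0.32 on the log2 scale after IR in the libraries labelled Tet2-/- (adjusted p = 0.0170), although Tet2-/- IR replicate 2 lay above Tet2-/- baseline replicate 1. The call was lost without Tet2-/- baseline replicate 2 (adjusted p = 0.0539) or replicate 3 (adjusted p = 0.0549), with library sizes alone (-0.98), with limma on log2(FPKM + 1) (-0.98, adjusted p = 0.0562), and with the adipocyte level as a covariate (-0.80, adjusted p = 0.0475, under the fold change threshold). In WT all 3 IR libraries were below the baseline range with a log2 difference of -0.83 ± 0.24 (adjusted p = 0.115). Between genotypes after IR, Calb1 differed by -0.79 ± 0.31 (adjusted p = 0.146), and the interaction was -0.38 ± 0.43 (adjusted p = 0.610). Slc8a1 (NR_104580, chr17:81772445-82137727, minus strand), the sodium-calcium exchanger NCX1 of the basolateral membrane, ranged from 0.702 to 5.97 FPKM and was called in no comparison. Its log2 differences were negative in all 4 comparisons of groups, from -1.15 ± 0.40 between genotypes after IR (adjusted p = 0.116) to -0.62 ± 0.43 for IR in WT (adjusted p = 0.433). Without WT baseline replicate 3 the difference was -0.18 for IR in WT and -0.50 between genotypes at baseline. DESeq2 called the difference between genotypes after IR (-1.16, adjusted p = 0.0280). The interaction was -0.17 ± 0.65 (adjusted p = 0.892). After IR in the libraries labelled Tet2-/-, Slc8a1 was called lower without Tet2-/- IR replicate 2 (-1.30, adjusted p = 0.0254). Its levels come from the transcript with the most counts of 4, a non-coding variant of 18599 bases whose counts are close to those of 2 coding variants, while the shortest variant has fewer.

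Of 18 further genes of calcium and magnesium transport, 16 were tested after IR in the libraries labelled Tet2-/-, with 5 called higher and 2 lower (median 0.02). Over all genes 12.7% were called higher and 11.6% lower, so the 2 lower calls are near that background. In WT 17 were tested (median 0.15), with 1 called higher, S100a10 (1.53 ± 0.23 on the log2 scale, adjusted p = 0.0252). Over all genes in WT, 1.46% were called higher and 0.887% lower. S100a10 and Anxa2, which form a complex known to bring Trpv5 to the membrane and are widely expressed, rose in Tet2-/- IR by 1.74 and 3.24 on the log2 scale (adjusted p = 0.000973 and 0.000103). Anxa2 was at 35.4, 35.5 and 27.7 FPKM in Tet2-/- baseline and at 279, 443 and 395 FPKM in Tet2-/- IR. The channel Trpv6, a close relative of Trpv5, rose by 1.46 on the log2 scale from a low level, at 0.867 to 2.47 FPKM in Tet2-/- IR. In WT it differed by 1.35 (adjusted p = 0.120), with every IR library above baseline, and the interaction was 0.14 (adjusted p = 0.914). Cldn14, a claudin that limits calcium uptake in the thick ascending limb, and the calcium pump Atp2b1 rose by 2.56 and 1.001. In WT the list ran from -2.46 for the exchanger Slc8a3 (adjusted p = 0.0690) to 2.35 for Cldn14 (adjusted p = 0.196). Pvalb, a buffer of the early distal convoluted tubule, fell by 3.94 on the log2 scale and the pump Atp2b2 by 1.74. Umod, the main urinary protein of the thick ascending limb, was at 2018 and 2512 FPKM in Tet2-/- IR replicates 1 and 2 and at 354 FPKM in replicate 3. No gene of this list was called between genotypes at baseline, after IR or in the interaction.

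Markers of tubule segments and leukocytes moved with several of these genes, and in whole kidney RNA fewer cells of a segment and less RNA per cell cannot be told apart. A proximal tubule list of 10 genes, all in the table and none at 0 in any library, summed to 2403 to 2951 FPKM at baseline, to 1478 to 1904 FPKM in WT IR and to 593 to 907 FPKM in Tet2-/- IR. Of its 10 genes, 5 were called lower after IR in Tet2-/- and 3 in WT, beside 11.6% and 0.887% of all genes. Its median log2 fold change was -1.57 after IR in Tet2-/-, beside -3.08 for Slc34a1, and -0.77 in WT, beside -1.22. Between genotypes after IR it was -0.94, beside -1.74 for Slc34a1 and -1.40 for Kl. For a distal convoluted tubule list of 5 genes the sum was 97.7 to 189 FPKM at baseline, 87.4 to 121 FPKM in WT IR and 41.6 to 117 FPKM in Tet2-/- IR, with 1 of 5 called lower after IR in Tet2-/- and a median of -0.39, where 11.6% of all genes were called lower. Trpv5 was higher in Tet2-/- IR while this list was not. Of the list, 1 gene had a positive fold change there and 4 a negative one, and the 1 called was Pvalb. Pvalb went from 11.6, 29.6 and 26.5 FPKM in Tet2-/- baseline to 1.29, 2.69 and 1.37 FPKM in Tet2-/- IR. Slc12a3, at 71.2, 66.3 and 63.7 FPKM in Tet2-/- baseline, was at 70.9, 91.3 and 25.2 FPKM in Tet2-/- IR. A list of 6 connecting tubule and collecting duct genes had a median of -0.53 after IR in Tet2-/-, with 1 of 6 called lower. This count and the 1 of 5 are near the background of 11.6%. The tubular injury list held 5 genes (Havcr1, Lcn2, Krt20, Sox9, Vcam1). It summed to 5.76 to 26.6 FPKM at baseline, 316 to 1096 FPKM in WT IR and 2786 to 2988 FPKM in Tet2-/- IR. Of the 5, 4 were called higher after IR in Tet2-/- and 3 in WT, beside 12.7% and 1.46% of all genes. Inside WT IR, replicate 1 had the lowest injury level, the highest level of its group for 6 of the 10 genes (Slc34a1, Kl, Calb1, Vdr, Fgfr1 and Slc8a1) and the lowest for 3 (Slc34a3, Trpv5 and Cyp24a1). A neutrophil list of 6 genes summed to 0.487 to 2.25 FPKM at baseline, 3.69 to 8.37 FPKM in WT IR and 61.1 to 114 FPKM in Tet2-/- IR. Of the 4 tested, 4 were called higher after IR in Tet2-/- (median 5.43), beside 12.7% of all genes. Between genotypes after IR, 3 were called higher (median 3.89), beside 2.3% of all genes. S100a8 was at 1.77, 3.29 and 2.32 FPKM in WT IR and at 47.2, 46.6 and 27.4 FPKM in Tet2-/- IR. Mpo and Elane, made early in the life of a neutrophil, were at 0 in all 3 WT IR libraries and at 0.029 FPKM or less in Tet2-/- IR. A macrophage list held 6 genes (Adgre1, Csf1r, Cd68, Itgam, Cd14, Lyz2). Its sum was 24.6 to 45.4 FPKM at baseline, 27.6 to 44.6 FPKM in WT IR and 52.9 to 184 FPKM in Tet2-/- IR. After IR in Tet2-/-, 3 were called higher and 1 lower, beside 12.7% and 11.6% of all genes. Between genotypes after IR, 2 were called higher, beside 2.3%. The 1 lower was Csf1r, at 30.9, 23.0 and 18.05 FPKM in Tet2-/- baseline and 4.44, 6.93 and 2.21 FPKM in Tet2-/- IR. In Tet2-/- IR, Lyz2 was at 13.1, 120 and 5.36 FPKM and Adgre1 at 0.309, 1.13 and 0.103 FPKM. The part of these shifts in the results for single genes was not tested.

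**Figure D5:**
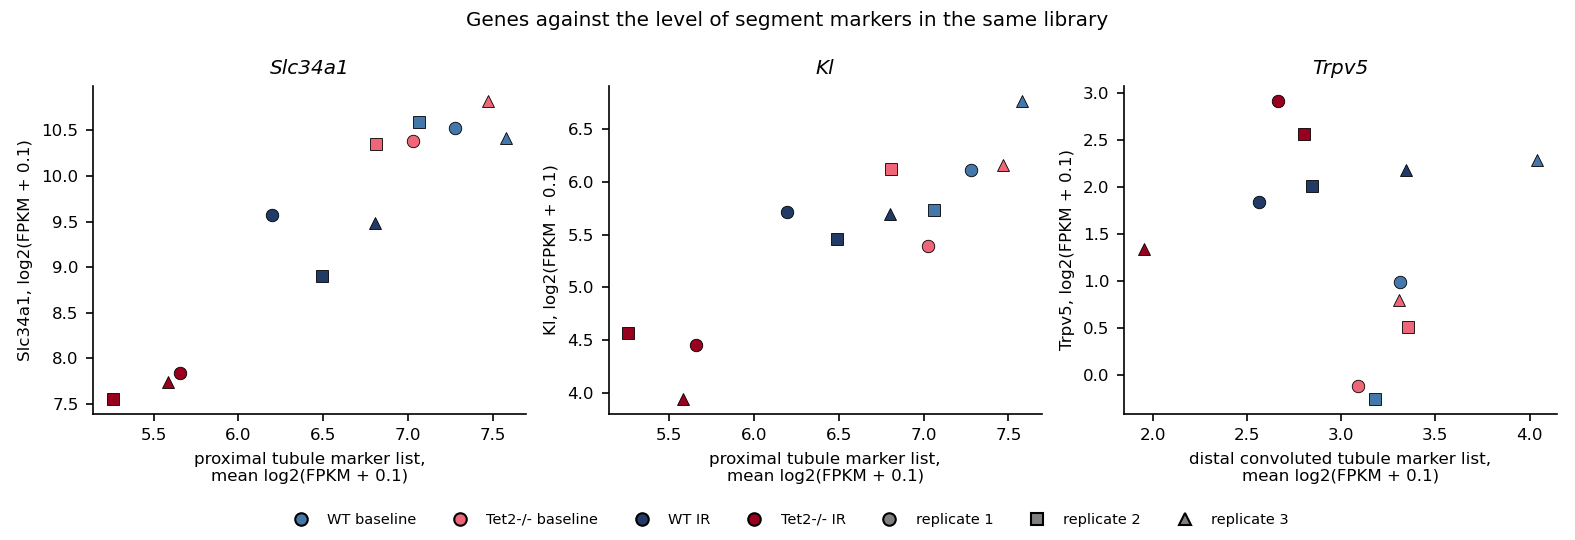
Log2(FPKM + 0.1) of Slc34a1, Kl and Trpv5 in each of the 12 libraries against the mean log2(FPKM + 0.1) of the proximal tubule or distal convoluted tubule list in the same library. The 3 Tet2-/- IR libraries are lowest on both axes for Slc34a1 and Kl. Trpv5 is above 2 on its log2 axis in 2 of these 3, at list levels below the baseline libraries. Of that list, Pvalb is at 1.29 and 2.69 FPKM in these 2 libraries and at 11.6 to 29.6 FPKM in Tet2-/- baseline. Slc12a3 is at 70.9 and 91.3 FPKM in them and at 63.7 to 71.2 FPKM in Tet2-/- baseline.

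The genes whose pattern over the 12 libraries was most like that of Slc34a1, by Pearson's r of log2(FPKM + 0.1) among 12213 genes, were BC024386 (r = 0.991), 1110032A03Rik (0.990) and Aspdh (0.989). For Kl they were Ccser2 (0.974), Acad8 (0.969) and Gphn (0.966). For Trpv5 they were Bcl2l2 (0.975), Zbed6 (0.965) and Dcaf17 (0.962), and for Calb1 Ndrg3 (0.945), Serinc4 (0.942) and Ift80 (0.939). These values describe 12 libraries that fall into 4 groups and share their depth and tissue makeup. None of the other 9 genes was among the nearest 3 of these 4.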

How the data were processed

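RNA-seq was measured in whole kidneys, 3 libraries in each of 4 groups. Per the labels and the study's methods, reads were aligned to mm9 and quantified with STAR and HOMER, tools named in the submitters' processing notes together with edgeR. Versions are not given in the sources used here, and neither is the strand setting of the counting. The authors deposited raw read counts per RefSeq transcript, made with HOMER, and FPKM, scaled by the authors to transcript length and library size.

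Of the deposited counts, 38.7% of values were not whole (steps of 0.5), so they were handled like expected counts and rounded, and for each of 24421 symbols the transcript of highest total was kept out of 34600. edgeR 4.0.16 (R 4.3.3) with TMM scaling, filterByExpr and the quasi-likelihood test gave log2 fold changes, standard errors and Benjamini-Hochberg adjusted p over all genes tested. Each comparison of 2 groups used its own 6 libraries and the interaction all 12. A call needed an adjusted p under 0.05 and, between groups, an absolute log2 fold change over 1. Levels are FPKM, on the log2 scale with a pseudocount of 0.1. Alternatives used DESeq2 1.42.0, limma 3.58.1, other scalings, filters, all transcripts, the adipocyte level, the replicate number as a block, and each library left out in turn. The scripts were tested on simulated data. Figures used Python 3.11.15, pandas 2.3.3 and matplotlib 3.10.9.

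The rule for named genes took all 10 genes and, from each pathway list, those of highest mean FPKM and of lowest and highest fold change after IR, and other called genes of these lists were named after their values were seen. The members and lists were chosen with earlier results of these data known. Same-numbered WT libraries deviated together across IR (correlations of 0.380, 0.363 and 0.358), and so did those labelled Tet2-/- (0.135, 0.359 and 0.222). Pairing therefore comes from these correlations alone, since the mice differ. P-values measure the spread between these libraries, and no source used here gives a batch.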

Additional observations from a re-analysis of the deposited data

Results flagged for a closer look

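The genotype by IR interaction of Slc34a1, -1.81 ± 0.35 on the log2 scale (edgeR adjusted p = 0.0117), drew attention because the IR response differed between the genotype labels in a direct test. The call was lost with the adipocyte level as a covariate (adjusted p = 0.105), with WT baseline replicate 1 as the only WT baseline library (0.118) and without the 3 libraries of high adipocyte level (0.106), with values of -1.81 to -1.91. Every IR library was below every baseline library in both genotypes, so the difference is one of size. Groups of 3 are too small to test for outlying libraries.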

How the results depend on the processing

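Over 28 settings and 989 values of the 10 genes, 891 kept their direction and side of the threshold, 21 lost a call, 23 gained one and 54 changed sign, 28 of these when a library was left out. The cause was not tested. For IR in WT, none called became 1 higher and 2 lower with DESeq2, 1 and 3 with the replicate block, 2 lower with limma on log2(FPKM + 0.1), and 1 lower with library sizes alone, no filter, a mean FPKM of at least 1, all transcripts or all 12 libraries in a single fit. For IR in Tet2-/-, 2 higher became 1 with the adipocyte covariate, and 4 lower became 3 with it, with library sizes alone and with limma on log2(FPKM + 1). After IR, 0 higher became 1 (Cyp27b1) with all 12 libraries in a single fit, and 2 lower became 0 with the covariate. For the interaction, 1 lower became 2 with DESeq2 and 0 with the covariate, with WT baseline replicate 1 as the only WT baseline library, or without the 3 libraries of high adipocyte level. The covariate in IR in Tet2-/- and after IR, and leaving out the 3 libraries, were chosen after seeing the data. Leaving out each library gave 0 to 1 higher and 0 lower for IR in WT, 1 to 2 higher and 3 to 5 lower for IR in Tet2-/-, 0 and 0 at baseline, 0 higher and 1 to 2 lower after IR, and 0 to 1 higher and 1 to 2 lower for the interaction.

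None of the values that changed sign was a call. With the covariate, Cyp27b1 was -1.49 for IR in Tet2-/- and -0.016 for the interaction, Slc34a3 1.60, Kl 0.025 and Vdr 0.027 at baseline, and, for the interaction, Fgfr1 -0.15, Calb1 0.10 and Slc8a1 0.45. With WT baseline replicate 1 alone, Slc34a3 was 1.18 at baseline and Fgfr1 -0.16 in the interaction. Cyp24a1 with limma on log2(FPKM + 1) and log2(FPKM + 0.1) was -0.021 and -0.24 at baseline, 0.061 and 0.19 after IR, and 0.083 and 0.43 in the interaction, where Slc8a1 with the first was 0.0011. The Fgfr1 interaction was -0.0443 with DESeq2, -0.0443 with its size factors (RLE), -0.0098 with upper quartile scaling, -0.020 with a mean FPKM of at least 1, -0.0703 with all transcripts and -0.16 without the 3 libraries, where Slc8a1 was 0.073. Over single libraries left out, IR in Tet2-/- spanned -0.60 to 4.06 for Cyp27b1 and -0.0061 to 0.21 for Fgfr1. At baseline the spans were -0.064 to 0.21 for Slc34a1, -0.81 to 0.51 for Slc34a3, -0.45 to 0.097 for Kl, -0.088 to 0.63 for Cyp27b1, -1.03 to 1.13 for Cyp24a1, -0.22 to 0.083 for Vdr and -1.31 to 0.051 for Trpv5. After IR they were -0.024 to 0.16 for Fgfr1, -1.09 to 0.27 for Cyp24a1 and -0.083 to 0.60 for Trpv5, and for the interaction -2.03 to 0.27 for Slc34a3, -0.097 to 0.075 for Fgfr1, -1.66 to 0.54 for Cyp24a1 and -0.74 to 0.13 for Slc8a1.

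The replicate block changed no call of the 10 genes outside IR in WT. Between genotypes the numbers did not pair the libraries (correlations of -0.186, -0.167 and 0.071 at baseline and 0.003, 0.230 and 0.320 after IR), and with the block Cyp24a1 was -0.48 at baseline and 0.063 after IR, the opposite sign. With 3 libraries a group, genes that vary widely within groups, such as Slc34a3 and Cyp24a1, have wide errors, which limits what can be told from their values.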
